A study of Homo sapiens with 10 samples.

Results

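The mean of 4 construct lines was compared with a control line in TREx293 cells, with each line weighted equally, to find expression changes held in common by lines that carry different inserts. All 10 libraries of the series entered the comparison, 8 from construct lines and 2 from the control line. Of 58216 gene identifiers in the deposited count table, 18127 passed the filter on low counts and were tested. TREx293 is a HEK293 derivative, a human embryonic kidney line, that expresses a tetracycline repressor and holds a recombination site, so that an insert placed at that site stays silent until doxycycline is given. The 5 groups had 2 libraries each: the control line (CTRL, genotype labelled WT) and 4 lines labelled as knockins, of MN1, of BEND2, and of the fusions MN1-BEND2 and MN1-CXXC5.

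By the labels' protocols, cDNAs with a 3×HA epitope tag were put into the pcDNA5/FRT/TO vector, introduced together with the recombinase plasmid pOG44, selected with blasticidin and hygromycin, and induced with doxycycline. This text is the same for every library, the control included. Whether the control line carried an empty vector, went through selection or received doxycycline is not stated, and neither is whether a line was 1 clone. Insert, epitope tag, selection, induction and the control line itself therefore cannot be told apart in this comparison. All 4 single comparisons also use the same 2 control libraries, so a deviation of those libraries enters each of them. Separate cultures are not stated for the 2 libraries of a line, so the p-values rest on a spread between samples that may be only technical.

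MN1 is a transcriptional coregulator, BEND2 is a protein with BEN domains, which can bind DNA, and CXXC5 is a CXXC zinc finger protein. Fusions of MN1 with BEND2 or CXXC5 occur in astroblastoma, a glial brain tumour. Genes of several pathways recur below, and the cause of their changes was not tested. ATF4 is a transcription factor made when amino acids run short or unfolded protein builds up, and it switches on amino acid synthesis, transport and stress genes. SREBP2 switches on cholesterol synthesis and uptake when sterols are low. MondoA, with its partner MLX, switches on TXNIP and ARRDC4 when glucose phosphates are abundant.

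Library totals were 15.9 to 26.8 M counts (M for 1e6), and 3 counts corresponded to 0.112 to 0.189 counts per 1e6 (CPM), a floor that covers counting error only. Log CPM of the 2 libraries of a line correlated at 0.991 to 0.993 across genes, and their counts differed by more than sampling noise in each line (chi-square per degree of freedom 2.08 to 3.41). One control library and 1 MN1 library stood apart. The summed level of 18 salivary and squamous marker genes was 109 CPM in CTRL replicate 1 and 98.7 CPM in MN1 replicate 1, against 1.54 to 4.62 CPM in the other 8 libraries. Of the 12 markers that passed the filter, 7 were called lower by the mean, and 0 were called in all 4 lines. The mucin gene MUC7 had 17.7 and 0 CPM in CTRL, 13.3 and 0 in MN1, and 0 to 0.106 in the other lines. The keratin gene KRT4 was at 16.5 and 0 CPM in the control, 17.6 and 0.107 in MN1, and at most 0.0592 elsewhere. Some results are therefore also given without those libraries. Of 10 HEK293 markers 9 were tested, at a summed level of 754 to 1376 CPM, with 3 called higher and 3 lower by the mean. Over all tested genes 17.3% were called higher and 20.7% lower. The blood cell list had 5 tested members with 1 called (LYZ, lower, 5.83 CPM in CTRL replicate 1 and 6.35 in MN1 replicate 1) and the hepatocyte list 2 tested with 0 called.

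The inserted genes were read first. MN1 had 3.91 and 3.81 CPM in CTRL, 328 and 325 in the MN1 line, 291 and 291 in MN1-BEND2 and 128 and 128 in MN1-CXXC5. The BEND2 line had 5.39 and 4.93 CPM of MN1, a log2 fold change of 0.44 against control (edgeR's quasi-likelihood test, Benjamini-Hochberg adjusted p = 0.027), and its call in all 4 lines was lost when 1 control library was left out. BEND2 reached 390 and 399 CPM in its own line and 394 and 407 in the fusion line, with 0 and 0.171 in control. CXXC5 stood at 13.6 and 13.4 CPM in control and at 55.2 and 61.9 in MN1-CXXC5. Reads of an insert and of the cell's own gene are added together in these counts.

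The mean of the 4 lines differed from control in 6893 of 18127 tested genes (38.0%) at an adjusted p under 0.05, with 3141 higher (17.3%) and 3752 lower (20.7%). Few of these differences were held by every line: 867 genes (4.78%) were called in the mean and in all 4 single comparisons in 1 direction, 317 higher (1.75%) and 550 lower (3.03%). The other calls of the mean rested on 3 lines for 2106 genes, on 2 for 2804, on 1 for 1097 and on no single line for 19. Over all tested genes, 3208 were called higher in some lines and lower in others, and 898 of these were among those called by the mean. The 4 lines differed from each other in 12838 genes (70.8%).

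The error of this test is the spread between the 2 libraries of a line. When the 8 construct libraries were instead treated as 1 group against the 2 control libraries, so that the spread between lines entered the error, edgeR's quasi-likelihood test called 0 of 18127 genes, with 2010 at an unadjusted p under 0.05. No other tool was run on that design. Every call described here is thus a statement about these 4 lines and this control, and none was called once the spread between lines was the error. The control libraries also weighed on the calls: 334 of the 867 shared genes (110 higher, 224 lower) stayed shared whichever control library was left out, and 287 (94 higher, 193 lower) whichever of the 10 libraries was left out. Without CTRL replicate 1 and MN1 replicate 1 together the shared genes numbered 471.

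**Figure D1:**
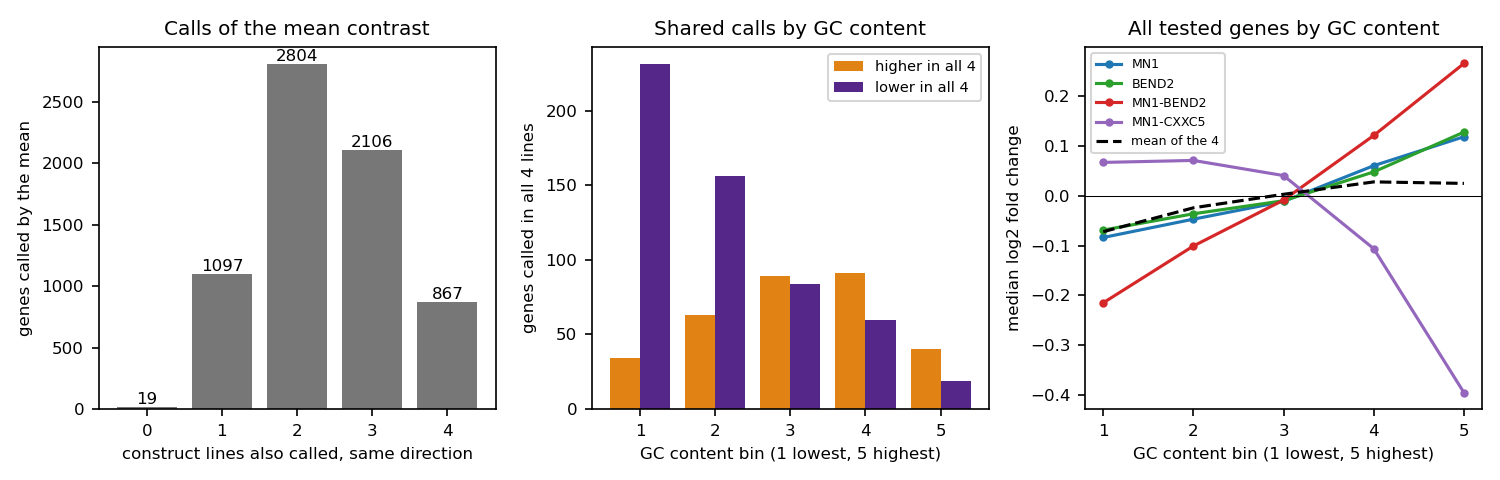
Left, genes called by the mean of the 4 lines against control (y) by the number of lines also called in that direction (x); the bars hold 19, 1097, 2804, 2106 and 867 genes. Middle, genes called in all 4 lines in 5 equal bins of GC content (1 is lowest); right, median log2 fold change of all tested genes in the same bins for each line and for their mean, where MN1-CXXC5 slopes down and the other 3 lines slope up.

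The shared changes were mostly small. The median shared rise was 0.37 (log2, mean of the lines) and the median shared fall -0.39, against -0.01 for all tested genes. Only 16 of the 317 rises and 39 of the 550 falls had a log2 fold change of at least 0.5 in each line, and 1 and 6 reached 1. All 317 rises and 549 of the 550 falls had construct and control libraries that did not overlap in CPM, a property that 6.28% of tested genes had with the constructs higher and 9.36% with the constructs lower. That share and the calls come from the same values.

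The lines did not contribute equally. The BEND2 line had the smallest change of the 4 for 188 of the 317 rises and 311 of the 550 falls, and the largest for 3 and 6. Its median over the rises was 0.24, against 0.43 in MN1, 0.44 in MN1-BEND2 and 0.36 in MN1-CXXC5. Over the falls the medians were -0.24 in BEND2, -0.44 in MN1, -0.51 in MN1-BEND2 and -0.31 in MN1-CXXC5. BEND2 also had the fewest calls of its own, 1217 higher (6.71%) and 1352 lower (7.46%), against 4841 (26.7%) and 4575 (25.2%) in MN1-BEND2. MN1 had 21.6% of tested genes called higher and 21.4% lower, and MN1-CXXC5 19.2% and 25.1%. Counts of list members in single lines below stand against these shares. Of the 867 shared genes, 784 also differed among the 4 lines in size, and 83 had no called difference among them.

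Genes of the cholesterol synthesis list were among the rises shared by all 4 lines. Of the 24 genes on that list 23 were tested, 18 were called higher by the mean (17.3% of all tested genes were) and 1 was called lower. In all 4 lines 10 were called higher (1.75% of all tested genes were), and 14 had a rise in each line, called or not. The share of all tested genes with a rise in each line was not counted. The median log2 fold change of the 23 tested genes was 0.35, with line medians of 0.61 in MN1, 0.39 in BEND2, 0.31 in MN1-BEND2 and 0.23 in MN1-CXXC5. Over all tested genes 21.6%, 6.71%, 26.7% and 19.2% were called higher in MN1, BEND2, MN1-BEND2 and MN1-CXXC5. Of the list, 21 were called higher and 0 lower in MN1, 15 and 0 in BEND2, 15 and 2 in MN1-BEND2 and 13 and 6 in MN1-CXXC5. The members below that rose in every line include the early enzyme HMGCS1, the isomerase IDI1, the epoxidase SQLE, the dehydrogenase NSDHL and the SREBP regulator INSIG1. With the MN1 line left out of the mean 12 members were called higher, and with DESeq2 13. With CTRL replicate 1 and MN1 replicate 1 left out 16 were.

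The promoters of 3 of these genes are shown because they hold CCAAT, the box bound by NF-Y, a factor that commonly works beside SREBPs. The 250 bases before the gene start are given, from RefSeq on GRCh38.p14, with each CCAAT (or its complement ATTGG) in capitals. The HMGCS1 window is chr5:43313413-43313662 on the minus strand, the INSIG1 window chr7:155297628-155297877 on the plus strand and the NSDHL window chrX:152830813-152831062 on the plus strand.
HMGCS1: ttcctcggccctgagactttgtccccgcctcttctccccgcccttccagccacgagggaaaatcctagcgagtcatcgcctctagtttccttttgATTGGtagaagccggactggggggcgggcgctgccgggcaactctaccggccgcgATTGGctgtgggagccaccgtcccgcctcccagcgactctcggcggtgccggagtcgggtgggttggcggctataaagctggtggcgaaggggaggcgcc
INSIG1: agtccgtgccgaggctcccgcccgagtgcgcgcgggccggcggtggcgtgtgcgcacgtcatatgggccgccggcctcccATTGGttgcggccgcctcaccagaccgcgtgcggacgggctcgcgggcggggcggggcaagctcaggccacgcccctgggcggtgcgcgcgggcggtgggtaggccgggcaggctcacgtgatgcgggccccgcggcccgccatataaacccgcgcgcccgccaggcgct
NSDHL: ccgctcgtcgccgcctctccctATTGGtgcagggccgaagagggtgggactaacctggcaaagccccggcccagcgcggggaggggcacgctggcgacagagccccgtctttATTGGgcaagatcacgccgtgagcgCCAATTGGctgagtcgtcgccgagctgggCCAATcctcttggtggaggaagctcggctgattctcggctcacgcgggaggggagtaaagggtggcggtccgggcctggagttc
CCAAT, searched on both strands, was present in 17 of 22 windows of the list (77.3%, from 17 of the 24 genes with an entry) and in 32.7% of 16838 windows of tested genes (11500 of 18110 symbols with an entry). It was present in 35.9% of the windows of all genes called higher in all 4 lines and in 29.1% of those called lower. List members called in all 4 lines had it in 6 of 8 windows (75.0%), and the ATF4 targets described below in 15 of 31 (48.4%). STARD4, a list member with a log2 fold change of -0.18, had 2 matches. A match describes these letters and not a bound site.

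SQLE, the squalene epoxidase gene and a member of this list, gave 82.9 and 80.9 CPM in control, 140 and 148 in MN1, 119 and 124 in BEND2, 144 and 141 in MN1-BEND2 and 147 and 144 in MN1-CXXC5. All 8 construct libraries lay above both control libraries, and 3 of the lines lay close together. Its log2 fold change was 0.75 (SE 0.032, edgeR adjusted p = 2.34e-08), with 0.81, 0.57, 0.80 and 0.83 in MN1, BEND2, MN1-BEND2 and MN1-CXXC5.

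GENCODE v29 places HMGCS1 on chromosome 5 at 43289395 to 43313512 (GRCh38), so the RefSeq window above overlaps the first bases of that span. HMGCS1 gave 190 and 189 CPM in control, 274 and 265 in MN1, 273 and 263 in BEND2, 321 and 317 in MN1-BEND2 and 329 and 329 in MN1-CXXC5. The control libraries were the lowest, and MN1 and BEND2 overlapped each other. The log2 fold change was 0.64 (SE 0.026, edgeR adjusted p = 1.49e-08). INSIG1 rose from 135 and 138 CPM in control to between 181 and 292, highest in MN1-CXXC5 (0.68). IDI1 was uneven: it stood at 122 and 127 CPM in control, at 142 to 177 in 3 lines and at 448 and 437 in MN1-CXXC5. NSDHL (0.72) also rose in each line. SREBF2, the gene of SREBP2 itself and named after its values were seen, had a log2 fold change of -0.07 (edgeR adjusted p = 0.15). Fatty acid synthesis genes did not share the pattern: of 12 tested, 4 were called higher and 4 lower, with a median of 0.02. The shares over all tested genes were 17.3% and 20.7%. FASN rose in the mean (0.57) with -0.10 in MN1-CXXC5, and ACLY, which makes cytosolic acetyl-CoA, rose in all 4 (0.36).

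**Figure D2:**
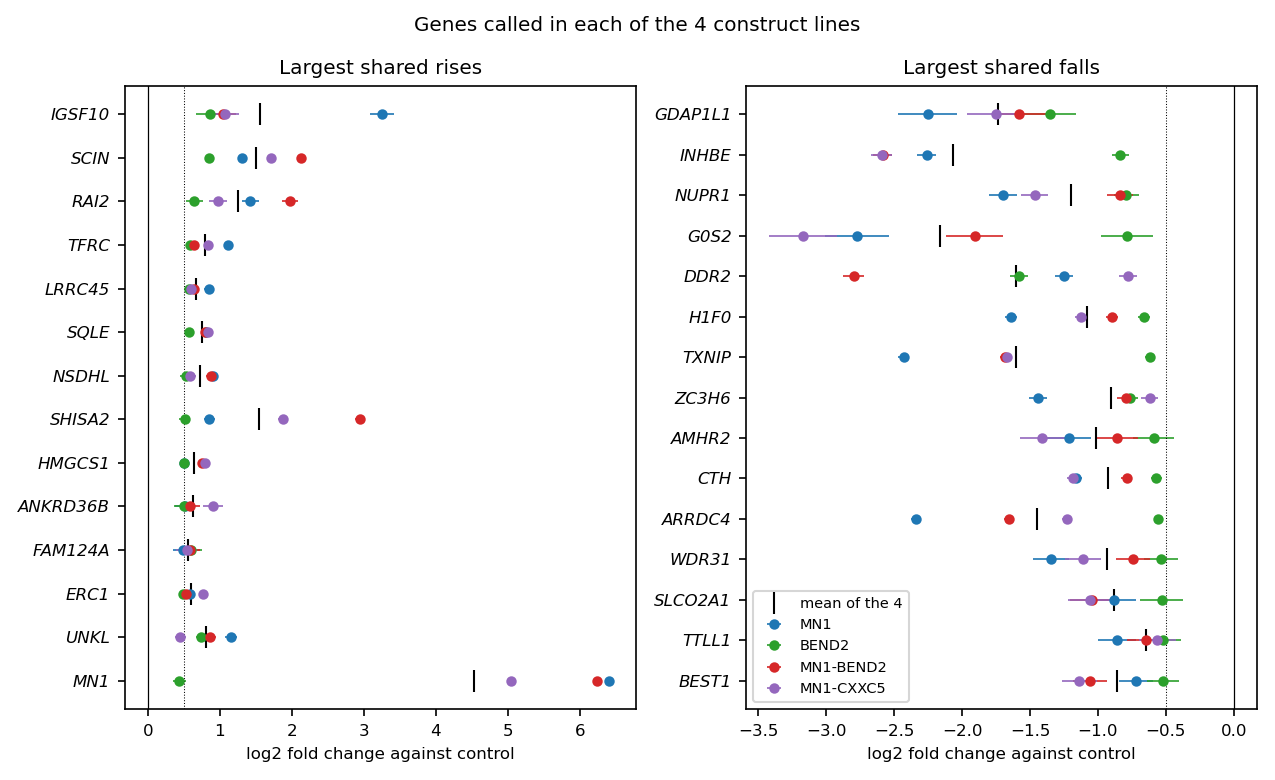
Log2 fold change against control of the largest shared rises (left) and falls (right) that are reported here, ordered by their smallest change; points are the 4 lines with the standard error as bars, black ticks the mean of the lines, and dotted lines mark 0.5 in size. BEND2 has the smallest change for most of these genes; MN1 itself, at the bottom left, rose by 0.44 in the BEND2 line.

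The transferrin receptor gene TFRC, which takes up iron, gave 83.4 and 84.9 CPM in control, 183 and 180 in MN1, 125 and 129 in BEND2, 133 and 131 in MN1-BEND2 and 152 and 147 in MN1-CXXC5. No construct library reached down to the control level. Its log2 fold change was 0.79 (SE 0.029, edgeR adjusted p = 5.9e-09). Of 10 tested metal response genes 3 were called higher by the mean and 1 lower (17.3% and 20.7% of all tested genes were). TFRC was the 1 member called in all 4 lines. FTL, a ferritin chain, fell by 0.29.

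SCIN encodes scinderin, an actin-severing protein. It gave 15 and 15.6 CPM in control, 38.7 and 37.3 in MN1, 27.2 and 28.3 in BEND2, 66.5 and 67.7 in MN1-BEND2 and 49.3 and 50.8 in MN1-CXXC5. The lines did not overlap each other or control, in the order BEND2, MN1, MN1-CXXC5, MN1-BEND2. The log2 fold change of the mean was 1.5 (SE 0.041, edgeR adjusted p = 8.19e-10). SHISA2, whose family restrains FGF and WNT receptors, kept the same order, from 8.38 and 8.60 CPM in control to 66.7 and 64.0 in MN1-BEND2 (1.55). IGSF10 differed from these, with 12.7 and 12.4 CPM in MN1 and 2.37 to 3.08 in the other lines, over 1.25 and 1.37 in control (1.56). IGSF10 did not stay shared whichever control library was left out, nor did ANKRD36B. RAI2 (1.26), UNKL (0.80), LRRC45 (0.66), ANKRD36B (0.63) and ERC1 (0.59) were also among the rises with the largest smallest change.

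FAM124A was the most even of the rises of at least 0.5. It gave 5.68 and 5.0 CPM in control and 6.81 to 8.66 in the construct libraries, with log2 fold changes of 0.49, 0.60, 0.58 and 0.54 in MN1, BEND2, MN1-BEND2 and MN1-CXXC5. No difference among the lines was called for it (edgeR adjusted p = 0.877), and its rise was no longer called without CTRL replicate 2. CCND1, the cyclin D1 gene, rose in all 4 lines (0.79; 60.3 and 56.2 CPM in control, 76.0 to 126 in the constructs).

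Genes switched on by ATF4 were all called lower by the mean, though not in each line. All 28 on the list were tested and 28 were called lower by the mean (20.7% of all tested genes were). In all 4 lines 13 were called lower (3.03% of all tested genes were), and 23 had a fall in each line, called or not. The share of all tested genes with a fall in each line was not counted. The median log2 fold change of the 28 was -0.50. Line medians were -0.68 in MN1, -0.20 in BEND2, -0.70 in MN1-BEND2 and -0.82 in MN1-CXXC5. Over all tested genes 21.4%, 7.46%, 25.2% and 25.1% were called lower in MN1, BEND2, MN1-BEND2 and MN1-CXXC5. Of the ATF4 list, 25 were called lower and 1 higher in MN1, 15 and 0 in BEND2, 25 and 1 in MN1-BEND2 and 26 and 0 in MN1-CXXC5. Their summed level was 4034 and 4059 CPM in CTRL, 3460 and 3503 in BEND2, and 2794 to 3061 in the other 6. The count of 28 fell to 25 with the MN1-CXXC5 line left out of the mean and to 27 with DESeq2. The 13 called in all 4 lines became 8 with DESeq2 and 16 with the replicate number as a block. With block and GC and length offsets together they became 22. Without CTRL replicate 1 and MN1 replicate 1 the median log2 fold change of the list was -0.54.

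INHBE, a hormone-like inhibin chain, gave 46.4 and 46.8 CPM in control, 9.81 and 9.64 in MN1, 27.5 and 24.5 in BEND2, 7.61 and 7.88 in MN1-BEND2 and 7.81 and 7.63 in MN1-CXXC5. The control was highest, BEND2 intermediate and the 3 lines with MN1 sequence low. Its log2 fold change was -2.07 (SE 0.049, edgeR adjusted p = 1.97e-10). CTH, which makes cysteine from cystathionine, gave 99.3 and 93.6 CPM in control, 42.4 and 43.7 in MN1, 64.6 and 65.3 in BEND2, 56.2 and 55.3 in MN1-BEND2 and 41.2 and 43.5 in MN1-CXXC5. Again BEND2 lay between control and the others, and no construct library reached control. The log2 fold change of CTH was -0.93 (SE 0.032, edgeR adjusted p = 3.38e-09).

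SLC7A11, the cystine importer, fell from 187 and 181 CPM to between 61.5 and 139 (-0.90), lowest in MN1-BEND2. NUPR1, a small stress-induced chromatin protein, fell from 29.9 and 32.9 CPM to between 9.47 and 19.3 (-1.20). DDIT4, an inhibitor of mTORC1, fell most in MN1-CXXC5, from 93.6 and 99.7 CPM to 17.0 and 21.3, and least in BEND2 (79.5 and 82.1). GDF15, a stress-secreted factor that also stands on the p53 list, fell by 2.41 from 4.69 and 4.53 CPM. The ATF4 gene itself, named after its values were seen, was higher by the mean at 0.17 (edgeR adjusted p = 0.00554). Of the single lines it was called in MN1 (0.44) and not in BEND2 (0.12), MN1-BEND2 (0.07) or MN1-CXXC5 (0.04). Of 20 cytosolic tRNA synthetase genes, many of which ATF4 also controls, 13 were called lower and 2 higher, with a median of -0.19. The shares over all tested genes were 20.7% and 17.3%. NARS (-0.39), TARS (-0.36) and DARS (-0.34) fell in all 4 lines.

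The windows of FGF21, ASNS and CHAC1, ATF4-induced genes, are shown because they hold TGATGNAA, the composite element of CEBP and ATF factors. They too are the 250 bases before the start, from RefSeq on GRCh38.p14, with the match or its complement in capitals. FGF21 lies at chr19:48755274-48755523 on the plus strand, ASNS at chr7:97872409-97872658 on the minus strand and CHAC1 at chr15:40953221-40953470 on the plus strand.
FGF21: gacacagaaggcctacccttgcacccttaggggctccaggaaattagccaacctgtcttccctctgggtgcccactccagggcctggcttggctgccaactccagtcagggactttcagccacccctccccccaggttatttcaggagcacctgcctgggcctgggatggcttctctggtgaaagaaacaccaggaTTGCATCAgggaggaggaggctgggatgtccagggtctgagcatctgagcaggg
ASNS: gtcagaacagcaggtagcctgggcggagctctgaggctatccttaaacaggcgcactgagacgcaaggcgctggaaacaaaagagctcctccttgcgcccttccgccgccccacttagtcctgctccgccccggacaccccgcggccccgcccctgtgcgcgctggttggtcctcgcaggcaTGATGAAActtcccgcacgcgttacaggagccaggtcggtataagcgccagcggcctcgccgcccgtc
CHAC1: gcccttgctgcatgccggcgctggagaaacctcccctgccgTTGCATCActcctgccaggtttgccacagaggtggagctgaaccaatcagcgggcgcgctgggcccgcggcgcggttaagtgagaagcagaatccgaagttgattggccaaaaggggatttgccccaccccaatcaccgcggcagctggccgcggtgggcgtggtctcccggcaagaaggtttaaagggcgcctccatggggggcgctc
The match began 54 bases before the start in FGF21, 68 in ASNS and 209 in CHAC1. Searched on both strands, TGATGNAA was present in 4 of 31 windows of the list (12.9%, from 21 of the 28 genes with an entry) and in 1.81% of the windows of all tested genes. It was present in 0 of 16 windows of the list members called lower in all 4 lines. Over all genes called in all 4, it was present in 2.90% of the windows of those lower and in 0.836% of those higher. FGF21, ASNS and CHAC1 were named for their windows. They were called lower by the mean (-1.75, -0.29 and -0.40) but not in each line, and CHAC1 had 0.24 in BEND2. FGF21 was low, with 2.45 and 3.21 CPM in control and 0.237 and 0.172 in MN1-CXXC5, near the floor of 3 counts.

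The MondoA targets TXNIP and ARRDC4 also fell in every line. TXNIP, which curbs glucose uptake and binds thioredoxin, gave 112 CPM in both control libraries, 21.2 and 20.3 in MN1, 72.9 and 72.4 in BEND2, 34.1 and 35.4 in MN1-BEND2 and 35.1 and 35.1 in MN1-CXXC5. The 2 fusion lines overlapped, MN1 was lowest and BEND2 nearest to control. Its log2 fold change was -1.60 (SE 0.027, edgeR adjusted p = 4.83e-12). ARRDC4, the closest relative of TXNIP among alpha-arrestins, gave 333 and 326 CPM in control, 66.3 and 63.9 in MN1, 225 and 223 in BEND2, 105 and 104 in MN1-BEND2 and 141 and 139 in MN1-CXXC5. No line overlapped another. The log2 fold change of ARRDC4 was -1.45 (SE 0.023, edgeR adjusted p = 2.74e-12). ARRDC3 fell by 0.65. The MondoA list has 6 members: 3 fell in all 4 lines and 2 were called higher by the mean, among them the partner gene MLX (0.24). Over all tested genes 3.03% were called lower in all 4 lines and 17.3% higher by the mean.

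The ARRDC4 promoter is shown for the E-box CACGTG, the core of the element that MondoA and MLX bind, in capitals. The window is the 250 bases before the start, chr15:97960453-97960702 on the plus strand, from RefSeq on GRCh38.p14.
ARRDC4: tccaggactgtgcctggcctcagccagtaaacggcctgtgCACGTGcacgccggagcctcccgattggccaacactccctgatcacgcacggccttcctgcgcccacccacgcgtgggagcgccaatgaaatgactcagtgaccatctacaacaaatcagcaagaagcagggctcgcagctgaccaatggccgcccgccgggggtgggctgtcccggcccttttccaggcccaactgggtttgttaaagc
The match began 210 bases before the start. MLX, on the same list and called higher, also had a match, 50 bases before its start. CACGTG, which reads the same on both strands, was present in 7.99% of the windows of all tested genes. It was present in 7.80% of the windows of genes called higher in all 4 lines and in 7.68% of those called lower.

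**Figure D3:**
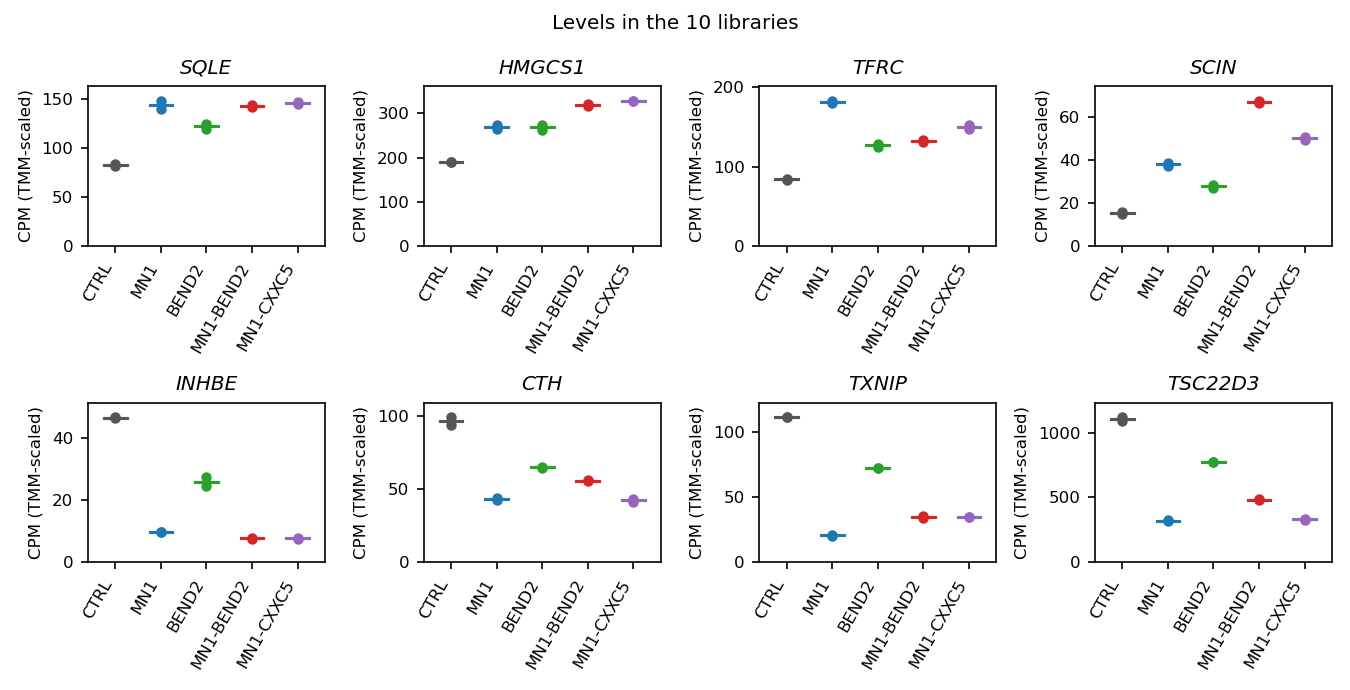
TMM-scaled CPM (y, from 0) of 8 genes in each of the 10 libraries, by line (x). SQLE, HMGCS1, TFRC and SCIN are above both control libraries in all 8 construct libraries, and INHBE, CTH, TXNIP and TSC22D3 are below them, with BEND2 nearest to control for most.

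TSC22D3, also known as GILZ, a leucine zipper gene induced by glucocorticoids and by FOXO factors, gave 1120 and 1089 CPM in control, 323 and 320 in MN1, 776 and 776 in BEND2, 487 and 481 in MN1-BEND2 and 335 and 328 in MN1-CXXC5. All lines lay below control and BEND2 was again the nearest to it. Its log2 fold change was -1.30 (SE 0.020, edgeR adjusted p = 2.74e-12). Of 10 tested glucocorticoid-induced genes, TSC22D3 included, 3 were called higher and 3 lower, with a median of 0.00 (17.3% and 20.7% of all tested genes were called so). TSC22D3 was the 1 member called in all 4 lines. FKBP5 was higher in MN1-BEND2 (0.66) and had -0.21 in MN1.

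DDR2, a receptor tyrosine kinase for collagen, broke the order of the lines. It gave 53 and 57.7 CPM in control, 23.2 and 23.3 in MN1, 18.9 and 18.0 in BEND2, 8.83 and 7.27 in MN1-BEND2 and 32.1 and 32.5 in MN1-CXXC5. Here BEND2 lay below MN1, and MN1-CXXC5 nearest to control. H1F0, the replacement linker histone H1.0, fell from 359 and 371 CPM to between 113 and 235 (-1.08). G0S2, an inhibitor of triglyceride breakdown, fell from 6.72 and 7.53 CPM to 3.85 and 4.49 in BEND2 and to between 0.516 and 2.07 in the other lines. GDAP1L1 fell in every line by at least 1.35, from 4.69 and 5.73 CPM. ZC3H6 (-0.90), AMHR2 (-1.02), WDR31 (-0.93), SLCO2A1 (-0.88), BEST1 (-0.86) and TTLL1 (-0.65) completed the largest falls, and of these ZC3H6 alone stayed shared whichever control library was left out. G0S2 did not, and GDAP1L1 did.

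The most even falls were in AK9, an adenylate kinase, and CCDC163. AK9 gave 9.95 and 11.3 CPM in control and 6.69 to 8.66 in the constructs (-0.50), and CCDC163 5.31 and 4.75 in control and 3.19 to 3.94 in the constructs (-0.52). No difference among the lines was called for either (edgeR adjusted p = 0.617 and 0.835). The fall of CCDC163 was no longer called with DESeq2 or without CTRL replicate 1. TTLL1 and IFT74 (-0.60), which serve cilia, and FAM206A (-0.50) were the other narrow falls.

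Chaperone and mitochondrial lists had more members called higher than lower by the mean, but not in each line. Of 12 tested cytosolic heat shock genes 10 were called higher and 0 lower, against 17.3% and 20.7% of all tested genes, with a median of 0.25. In the BEND2 line, where 6.71% of all tested genes were called higher, 3 of them were. DNAJB1 (0.37) and HSPH1 (0.39) rose in all 4 lines, whereas HSPA8 rose by 1.20 in MN1 with 0.07 in BEND2. Of 13 mitochondrially encoded genes 11 were called higher and 0 in all 4 lines, with a median of 0.26 that ran from 0.11 in MN1 to 0.52 in MN1-CXXC5. Over all tested genes 6.71%, 21.6%, 26.7% and 19.2% were called higher in BEND2, MN1, MN1-BEND2 and MN1-CXXC5. Of the mitochondrially encoded genes 0 were called higher in BEND2, 3 in MN1, 9 in MN1-BEND2 and 11 in MN1-CXXC5. Their summed level was 36780 and 40616 CPM in CTRL, and BEND2 replicate 1 (40105) and MN1 replicate 1 (39128) lay below CTRL replicate 2. Replicate 2 was higher than replicate 1 in every line, for this sum and for that of the heat shock genes. MT-CO1 stood at 0.08 in the mean.

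Of 74 nuclear-encoded respiratory chain genes 32 were called higher and 2 lower by the mean (median 0.10), against 17.3% and 20.7% of all tested genes. Over all tested genes the shares higher and lower were 21.6% and 21.4% in MN1, 26.7% and 25.2% in MN1-BEND2 and 19.2% and 25.1% in MN1-CXXC5. On this list the lines went opposite ways: 56 were called higher and 1 lower in MN1, and 15 higher and 33 lower in MN1-CXXC5. Only 4 were called higher in all lines, among them NDUFS6 (0.48) and ATP5MC1 (0.43). A rise in each line, called or not, was seen for 20, a count without a share over all tested genes to set it against. Of 74 tested mitochondrial ribosomal protein genes 24 were called higher and 6 lower by the mean (median 0.05), with 45 and 6 in MN1-BEND2 but 13 and 29 in MN1-CXXC5. Of these genes 6 were called higher in all lines (1.75% of all tested genes were), with MRPL20 and MRPL35 at 0.43. A rise in each line was had by 17, called or not, again without a share over all tested genes. The chaperonin partner genes HSPE1 and HSPD1 stood at 0.56 and 0.29 in the mean, and HSPE1 rose in all 4 lines. Cytosolic ribosomal protein genes had 12 of 77 called higher and 27 lower by the mean (median -0.01), with 39 and 9 in MN1 and 11 and 40 in MN1-CXXC5. Among endoplasmic reticulum genes 7 of 21 were called higher and 3 lower; HSPA5, the chaperone BiP, rose by 0.63 and the transcription factor gene XBP1 fell by 0.42, each in all 4 lines.

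**Figure D4:**
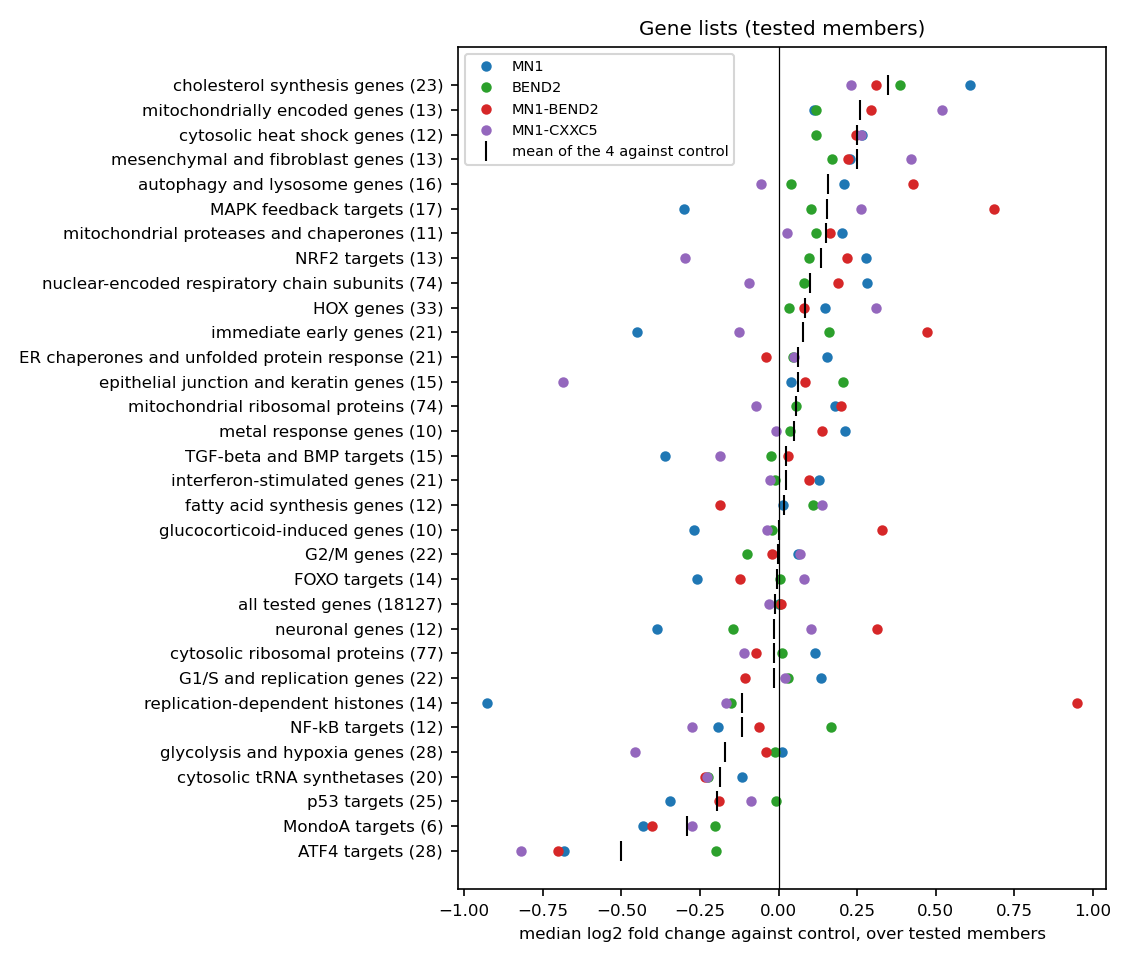
Median log2 fold change against control (x) over the tested members of each list drawn (y, number of tested members in parentheses). Points are the 4 lines and black ticks the mean of the lines. The inserted genes and the HEK293, blood cell, hepatocyte, and salivary and squamous marker lists are not drawn. Among the lists drawn, the ATF4 targets lie lowest (-0.50) and the cholesterol genes highest (0.35). All tested genes lie at -0.01, and several lists have lines on both sides of 0.

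Of 25 p53 targets 15 were called lower and 1 higher by the mean, against 20.7% and 17.3% of all tested genes. Their median was -0.19. In all 4 lines 2 were called lower (3.03% of all tested genes were). A fall in each line was had by 6, called or not, without a share over all tested genes to set it against. In single lines 19 were called lower in MN1 and 6 in BEND2, while MN1-BEND2 had 14 lower and 7 higher and MN1-CXXC5 12 lower and 6 higher. Over all tested genes 21.4%, 7.46%, 25.2% and 25.1% were called lower in these lines, in that order. The shares higher were 26.7% in MN1-BEND2 and 19.2% in MN1-CXXC5. GDF15 and SESN2 stand on both the p53 and the ATF4 list. Glycolysis and hypoxia genes had 14 of 28 called lower and 7 higher by the mean (median -0.17). MN1-CXXC5 had 20 lower and 3 higher with a median of -0.46, and the medians of the other 3 lines lay between -0.04 and 0.01. VEGFA (-0.75) and BNIP3L (-0.49) fell in each line, and PGK1 fell by 0.42 with -0.08 in BEND2. Of 16 autophagy and lysosome genes 8 were called higher and 1 lower by the mean (median 0.16), with 0 in all 4 lines and a median of -0.06 in MN1-CXXC5.

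The lists that follow had at most 2 shared members each, and over all tested genes 17.3% were called higher and 20.7% lower. Immediate early genes had 5 of 21 called higher and 5 lower, MAPK feedback genes 5 and 3 of 17, interferon-stimulated genes 5 and 3 of 21, NF-kB targets 2 and 2 of 12, TGF-beta and BMP targets 3 and 4 of 15 and replication-dependent histones 2 and 2 of 14. NRF2 targets had 6 of 13 called higher and 1 lower, with HMOX1 at 2.78 in MN1-BEND2 and -0.30 in MN1-CXXC5. HOX genes had 13 of 33 called higher and 3 lower: HOXA13 rose (0.64) and HOXD8 fell (-0.88) in all 4 lines. FOXO targets had 4 of 14 called higher and 6 lower, and CDKN1B, the p27 inhibitor of cyclin-dependent kinases, fell in all 4 lines (-0.35).

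Cell cycle lists were split. G1/S and replication genes had 7 of 22 called higher and 5 lower, with RRM2, a ribonucleotide reductase subunit, up in all 4 lines (0.62). G2/M genes had 6 of 22 called higher and 7 lower, with HMMR down in all 4 (-0.61). Lineage lists were split too: neuronal genes had 1 of 12 called higher and 4 lower, with the synaptic vesicle gene SYP down in all 4 (-0.96). Epithelial genes had 2 and 2 of 15, and mesenchymal genes 5 and 3 of 13, with ZEB2 down in all 4 (-0.38).

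Some calls of the mean rested on the level in 1 line or in single libraries. ADRA2A, an adrenergic receptor gene, gave 0.312 and 0.855 CPM in control, 0.44 to 1.28 in 3 construct lines and 100.1 and 93.6 in MN1-BEND2. Its mean log2 fold change of 2.10 was no longer called with that line left out. PCDH10, a protocadherin gene, stood at 24.3 and 26.1 CPM in MN1-BEND2, 5.80 and 5.33 in MN1-CXXC5, and 0.385 to 1.34 elsewhere (2.69). The 3 largest falls of this kind were MUC7, KRT4 and ZG16B, whose level was in CTRL replicate 1 and MN1 replicate 1. Single libraries could also carry a shared call: BAG6, named after its values were seen, had 1.25 CPM in CTRL replicate 1, 22.6 in CTRL replicate 2 and 0.229 to 2.41 in the constructs, and was called lower in all 4 lines although the groups overlapped.

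Shared calls were not spread evenly over base composition. With the tested genes in 5 equal bins of GC content, 34 of the shared rises and 231 of the shared falls lay in the bin with the lowest GC (23.1% to 40.9%), and 40 and 19 in the highest (57.5% to 76.0%). The median GC content was 49.0% for the shared rises, 42.1% for the falls and 48.1% for all other tested genes. The median change of all tested genes in the lowest and highest bin was -0.08 and 0.12 in MN1, -0.07 and 0.13 in BEND2, -0.21 and 0.27 in MN1-BEND2, and 0.07 and -0.40 in MN1-CXXC5. With offsets for GC content and length in each library, 804 genes were shared, 605 of them among the 867. With these offsets 167 of the 168 named genes kept their direction and call, and NFKB1 lost it (0.12, edgeR adjusted p = 0.069). The ATF4 list had 28 members called lower, 13 of them in all 4 lines, and the cholesterol list had 19 called higher, 10 of them in all 4. Shared genes also had a higher level than the rest, with medians of 74.4 CPM for the rises and 63.5 for the falls against 13.3 for other tested genes.

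By position, medians over neighbouring genes were small but not spread evenly over chromosomes. Over 281 windows of 10 Mb with at least 20 tested genes, the median log2 fold change of the mean ran from -0.19 on chromosome 3 (170 to 180 Mb, 30 genes) to 0.18 on chromosome 2 (100 to 110 Mb, 44 genes), and 40 windows reached 0.1 in size. In the chromosome 3 window the lines stood at -0.22 in MN1, -0.24 in BEND2, -0.34 in MN1-BEND2 and 0.08 in MN1-CXXC5. PLD1 (-0.81), ZNF639 (-0.57) and TBL1XR1 (-0.48) had the smallest adjusted p there. In the chromosome 2 window all lines were at 0.05 or above, and CNOT11 (0.29), POU3F3 (0.37) and SOWAHC (0.40) led. Other chromosome 2 windows were also among the highest, such as 20 to 30 Mb and 50 to 60 Mb (0.17 each), while 150 to 160 Mb was at -0.13. Chromosome 18 as a whole had a median of -0.09, with -0.33 in MN1-BEND2 and 0.10 in MN1-CXXC5. Chromosome 21 had 0.10, with 0.18 in MN1-BEND2 and -0.03 in MN1-CXXC5. The cause was not tested.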

How the data were processed

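Total RNA of 10 TREx293 libraries was sequenced. The authors deposited whole-number read counts per gene, not normalized; per the submitters' processing notes they used HISAT2, SAMtools 1.0.1, featureCounts 2.0.0 and build GRCh38 (hg38). Not given in the sources used here are annotation release, strand and counting options, so overlapping or antisense genes and near-identical copies cannot be told apart. Of 58261 lines, 45 identifiers on 2 lines were summed and 27 date-like symbols were restored from GENCODE v29, which supplied positions, length and GC content. No per-sample column was unmatched.

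All libraries entered 1 fit by line in edgeR 4.0.16 (R 4.3.3; TMM scaling, filterByExpr, quasi-likelihood F-test, 5 residual degrees of freedom, common coefficient of variation 0.0404), with p-values Benjamini-Hochberg adjusted over 18127 genes and calls at 0.05. The mean contrast weighted the 4 lines equally, and a shared gene was called in it and in each single contrast in 1 direction. Levels are TMM-scaled CPM, and fold changes are log2. The script was tested on simulated counts. Alternatives covered DESeq2 1.42.0, scaling, filters, GC and length offsets, the replicate number as a block, leaving out each library or line, and 8 against 2 libraries.

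Members and lists were chosen with earlier results of these data known. Named genes were the inserted genes; the 15 largest shared rises and falls by smallest change (protein coding, at least 5 CPM, no overlap); up to 4 called members of each list by adjusted p; the 3 largest rises and falls called by the mean but not shared; up to 3 per window; and the 5 narrowest rises and falls of at least 0.5. Some genes that this rule or the lists hold are not reported here.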

Additional observations from a re-analysis of the deposited data

Results flagged for a closer look

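The 4 construct lines differed from each other in 12838 tested genes by edgeR's quasi-likelihood test of the difference among lines. CXXC5 shows this: against control its log2 fold change was -0.63 in MN1, 0.73 in MN1-BEND2 and 2.12 in MN1-CXXC5, and the difference among the 4 lines was called (adjusted p = 1.8e-10). In MN1-CXXC5 the insert adds to the count of this gene. Groups of 2 libraries were too small for a test of single outlying libraries.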

How the results depend on the processing

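The limit on every result is the unit of the error: with 8 construct libraries set against 2 control libraries, 0 genes were called by the mean, and each of the 168 named genes lost its call. The count called by the mean was 4008 with DESeq2, and leaving out 1 library at a time gave 4860 (without CTRL replicate 2) to 6722. The shared genes numbered 327 with DESeq2, 55 with at least 0.5 in each line, 471 without CTRL replicate 1 and MN1 replicate 1 (chosen after seeing the data), and 439 (without BEND2 replicate 1) to 813 with 1 library left out; without BEND2 replicate 2, CTRL replicate 1 and CTRL replicate 2 they numbered 506, 534 and 492. With the replicate number as a block they numbered 1328, and with block and GC and length offsets together 1402. The main fit held no such block. Same-numbered libraries deviated together in every pair of lines, at correlations of 0.066 to 0.29. With only 2 numbers, whether these mark paired libraries cannot be decided. The cause was not tested. Library totals, DESeq2 size factors and both filters left both counts within 1.5 times, and the mean of 3 lines did so for the count called by the mean; it gives no shared count. Of 4015 values of named genes under alternatives, 3761 kept direction and call, 239 lost the call and 15 changed sign. With 1 library left out at a time, LYZ ran from -7.30 (without MN1 replicate 1) to 0.79 (without CTRL replicate 1), and over the same settings ZG16B ran from -7.01 to 2.84, KRT4 from -8.10 to 3.80 and MUC7 from -9.69 to 3.28; KRT13 ran from -4.60 (without CTRL replicate 2) to 1.29 (without CTRL replicate 1). Without CTRL replicate 1 and MN1 replicate 1 together the sign changed in ZG16B (0.12) and KRT13 (0.69). Without the MN1-BEND2 line it changed in CLPP (-0.0052), SLC30A1 (-0.12), KRT8 (-0.19), HIST1H2BK (-0.0095) and ETV5 (-0.0868), without MN1-CXXC5 in ID3 (0.0575) and KRT19 (0.22), and without MN1 in HIST1H2AC (0.0534). Changes under the floor of 3 counts, 0.112 to 0.189 CPM, are not detectable at this depth.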
